A study of Mus musculus with 12 samples.

Results

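To follow the collagen genes of cerebellar astrocytes through postnatal development, the RNA-Seq profiles of GFP-sorted cells from Aldh1l1-GFP mice were compared at postnatal days P1, P7, P14 and P28. The collagen genes were taken by symbol, as every entry named Col, a number, the letter a and a number, and 44 of the 24421 entries of the table met this rule. They were divided into 11 fibrillar chains, 8 chains of basement membranes and 25 other chains, of which 9 were FACIT collagens (fibril-associated collagens with interrupted triple helices), 6 beaded filament chains, 4 transmembrane collagens, 3 short-chain network collagens and 3 anchoring fibril or unclassed chains. All groups were cerebellum of the same reporter line on the C57/BL6J background, with both sexes used and no further treatment. Age is the only difference between the groups that the sample titles give. The sex and sequencing run of each library are not stated there, so they cannot be told apart from age. Each age had 3 libraries, 12 in all. In this line the Aldh1l1 promoter drives GFP, so a library holds the cells that were GFP-positive at sorting, and cells of other types that entered the gate are not separated from astrocytes. The labels do not say whether the 3 libraries of an age came from separate animals, and p-values therefore measure only the spread between these libraries.

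Collagens are built from 3 chains wound into a triple helix, and a chain can enter the helix only where glycine, the smallest amino acid, opens each triplet of residues. Fibrillar collagens have long unbroken helices that pack side by side into banded fibrils, the main tensile material of meninges, skin, tendon and bone. Type IV collagen has a helix broken at many places and forms the flexible sheet of basement membranes, including the one under the pia on which the endfeet of Bergmann glia rest and the one around brain capillaries. FACIT and beaded filament collagens attach to fibrils or link them to their surroundings, and transmembrane collagens sit in the cell surface.

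The glycine repeat can be read from the coding sequences, and 4 chains that carry the results below are shown for 90 bases each, spliced, from the GENCODE M21 transcripts on GRCm38 (mm10). Every glycine codon is in capitals. The stretches of Col1a1 (chr11:94945527-94945828, plus strand) and Col3a1 (chr1:45337259-45337434, plus strand) lie inside a long helix, and those of Col9a3 (chr2:180615579-180615847, plus strand) and Col4a1 (chr8:11244516-11245219, minus strand) span the point where the longest run of repeats ends, at codon 19 of the stretch.
Col1a1: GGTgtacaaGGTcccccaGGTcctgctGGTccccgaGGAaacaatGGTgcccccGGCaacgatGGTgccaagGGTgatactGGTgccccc
Col3a1: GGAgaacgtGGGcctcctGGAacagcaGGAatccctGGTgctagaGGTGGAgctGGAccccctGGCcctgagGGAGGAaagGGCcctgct
Col9a3: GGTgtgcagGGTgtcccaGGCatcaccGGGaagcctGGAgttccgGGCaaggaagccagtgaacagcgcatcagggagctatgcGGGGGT
Col4a1: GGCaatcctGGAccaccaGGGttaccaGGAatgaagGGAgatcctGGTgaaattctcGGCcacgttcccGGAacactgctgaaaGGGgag
In Col1a1 and Col3a1 a glycine codon opens each triplet from end to end, whereas in Col9a3 and Col4a1 the spacing is lost before the end of the line. Over whole coding sequences, the longest run of glycine triplets had a median of 338 triplets in the 11 fibrillar chains, with a range of 216 to 344. It had a median of 41 triplets in the 8 basement membrane chains, with a range of 30 to 66, and these chains held 11 to 27 separate runs of at least 5 triplets. The runs of Col9a1, Col9a2, Col9a3 and Col22a1 were 113 triplets long. Col24a1 and Col27a1, the minor fibrillar chains, had the shortest runs of their class, of 216 and 217 triplets.

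**Figure D1:**
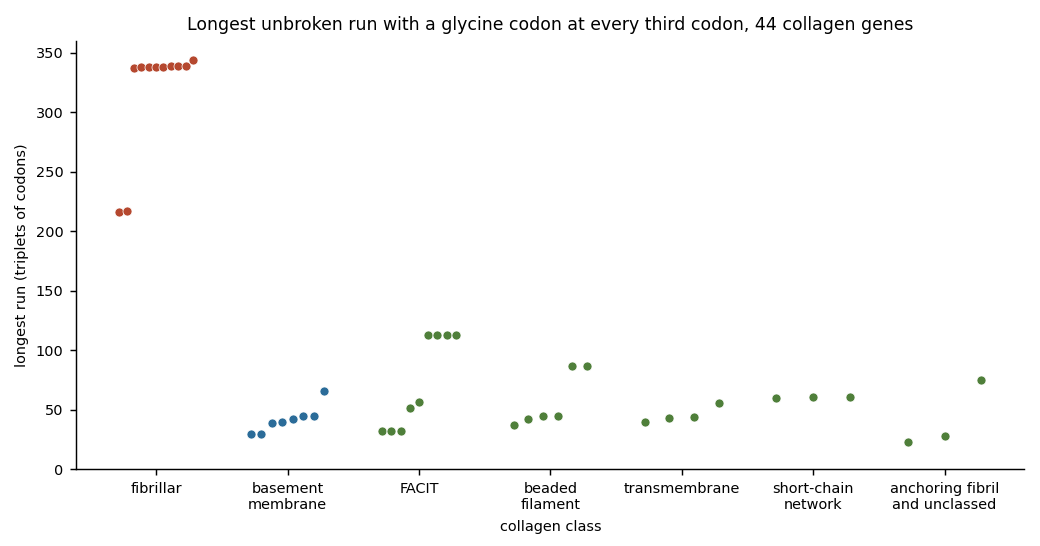
Longest unbroken run of glycine triplets in the coding sequence (y axis, triplets) of each collagen gene, with 1 point per gene and the genes arranged by class on the x axis. The 11 fibrillar chains lie between 216 and 344 triplets and the 8 basement membrane chains between 30 and 66.

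The libraries held between 6399499 and 14733985 reads, recovered as whole numbers from the deposited normalized counts. The collagen genes held up to 13855 reads in a library. P1 replicate 2 and P7 replicate 2 stood apart: P1 replicate 2 was the highest P1 library for 25 of the 44 collagens, and P7 replicate 2 was the highest P7 library for 26. The summed level per kilobase of exon of 10 astrocyte markers was 6994 to 9014 at P1, 3884 to 7168 at P7, 17052 to 22844 in the P14 libraries and 39378 to 44317 in those of P28. From P1 to P7, 6 of them were called lower and 1 higher, and from P1 to P28 8 were called higher and 1 lower. The latter was Aldh1l1, whose promoter drives the reporter (log2 -0.76, adjusted p = 0.0286, and -1.80, adjusted p = 0.000466, in the step to P7). The first of these was lost without P1 replicate 1 (0.136), P1 replicate 2 (0.0557) or P28 replicate 1 (0.0878), with 0.00113 to 0.136 over the alternatives. Markers of other cells were present too. The summed level of 15 meningeal and perivascular fibroblast markers, led by Dcn and Ogn, was 1536, 4105 and 1043 at P1, 1072, 1564 and 1738 at P7, 1786, 1209 and 1538 at P14 and 934, 1145 and 1004 at P28. It was highest in P1 replicate 2, which among the P1 libraries alone was also highest for 25 of the 44 collagens. The summed level of 12 endothelial markers, led by Cldn5 and Cdh5, ran from 189 to 910 in the P1 libraries, 400 to 2633 in those of P7, where replicate 2 was highest, 1514 to 1930 in those of P14 and 928 to 1219 in those of P28. The 12 pericyte and smooth muscle markers, led by Vtn and Pdgfrb, summed to 931 to 2893 in the P1 libraries, 1096 to 1823 in those of P7, 2146 to 2769 in those of P14 and 975 to 1326 in those of P28. From P1 to P28, 6 of 15 fibroblast, 0 of 12 endothelial, 2 of 12 pericyte, 1 of 10 choroid plexus, 2 of 10 oligodendrocyte and 2 of 8 neuron markers were called lower in limma, and 0, 5, 1, 5, 6 and 5 higher, where 20.0% and 14.6% of all genes were. From P14 to P28, when the most collagens fell, 2 fibroblast, 2 endothelial, 3 pericyte, 1 choroid plexus, 8 oligodendrocyte and 3 neuron markers were called lower and none of them higher, where 8.76% and 5.68% of all genes were. The oligodendrocyte sum was 28031 to 38537 in the P14 libraries and 5035 to 8459 in those of P28. The part of these cells in the collagen values was not tested, and in such bulk samples fewer cells of a type and less RNA per cell cannot be told apart.

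More collagen genes fell than rose with age. In the fit of all 12 libraries, most calls between neighbouring ages were falls from P14 to P28. With only the compared ages fitted, that step had the fewest calls instead of the most, as given in the last section. The calls over all genes in that step also dropped under this fit, from 2232 to 766. Each gene was tested on log2(normalized count + 1) with limma in 1 fit of all 12 libraries, with p adjusted by the Benjamini-Hochberg method over the 15464 genes that reached a value of 10 in at least 3 libraries, and a gene was called at an adjusted p under 0.05. Of the 44 collagens 43 entered the test, and Col6a4, a beaded filament chain with normalized counts of 0 to 7.57, did not. From P1 to P7, 2 collagens were called higher, Col4a3 and Col9a3, and 1 lower, Col4a5, against 3.47% and 4.24% of all genes (7.70% in either direction). From P7 to P14, 1 was called higher, Col9a3, and 4 lower, against 10.8% and 10.0% of all genes (20.9%). From P14 to P28, 1 was called higher, again Col9a3, and 15 lower, against 5.68% and 8.76% of all genes (14.4%). Between the ends of the series, P1 and P28, 3 were called higher, Col4a3, Col9a3 and Col11a2, and 23 lower, against 14.6% and 20.0% of all genes (34.6%). At any time point 29 of the 43 differed, against 43.8% of all genes.

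In the first step (P1 to P7) the 43 collagens had a median log2 fold change of -0.18, in the next (P7 to P14) -0.41, in the last (P14 to P28) -1.20, and over the whole interval -2.25. Over all genes tested it was 0.037, -0.086, -0.12 and -0.24. The share of collagens called lower thus lay above the background in the last step and over the whole interval, and near it in the earlier steps. All 3 libraries of P28 lay below all 3 of P14 for 19 collagens and above them for 3, where 14.5% and 11.7% of all genes did so. The P28 libraries lay below all P1 libraries for 23 and above them for 5, against 24.0% and 17.9% of all genes. The study's own cutoff asks for a fold change over 0.75 with p under 0.05. It was read here as a log2 fold change with p before adjustment, and applied to the limma fit, whereas the study used DESeq2. By this cutoff, 4 collagens rose and 6 fell in the first step, against 6.94% and 7.27% of all genes (14.2% in either direction). In the step to P14, 4 rose and 7 fell, against 13.1% in each direction (26.2%). In the step to P28, 2 rose and 20 fell, against 7.83% and 16.3% (24.1%). Over the whole interval 4 rose and 26 fell, against 15.6% and 23.8% (39.3%).

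A gene near zero at one age can enter the test only through an age at which it is high. Of the 43 collagens, 23 held at least 10 reads and a value of at least 10 in every library. Among these better covered chains, 1 rose and 9 fell from P14 to P28, where 7.92% and 5.93% of the 10911 genes with such coverage did so, with a median change of -1.01 on the log2 scale. From P1 to P28, 2 rose and 14 fell, against 19.4% and 14.2%. Without P1 replicate 2 the number of collagens called from P1 to P28 was 20 in place of 26, and without P7 replicate 2 limma called no collagen from P1 to P7 (8 at an unadjusted p under 0.05). Without P14 replicate 1 the number called from P14 to P28 was 7 in place of 16, and without P14 replicate 2 it was 10. The calls over all genes changed too. From P1 to P28 they went from 5350 to 4534 without P1 replicate 2, and from P1 to P7 from 1191 to 651 without P7 replicate 2. From P14 to P28 they went from 2232 to 1421 without P14 replicate 1 and to 1613 without P14 replicate 2.

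**Figure D2:**
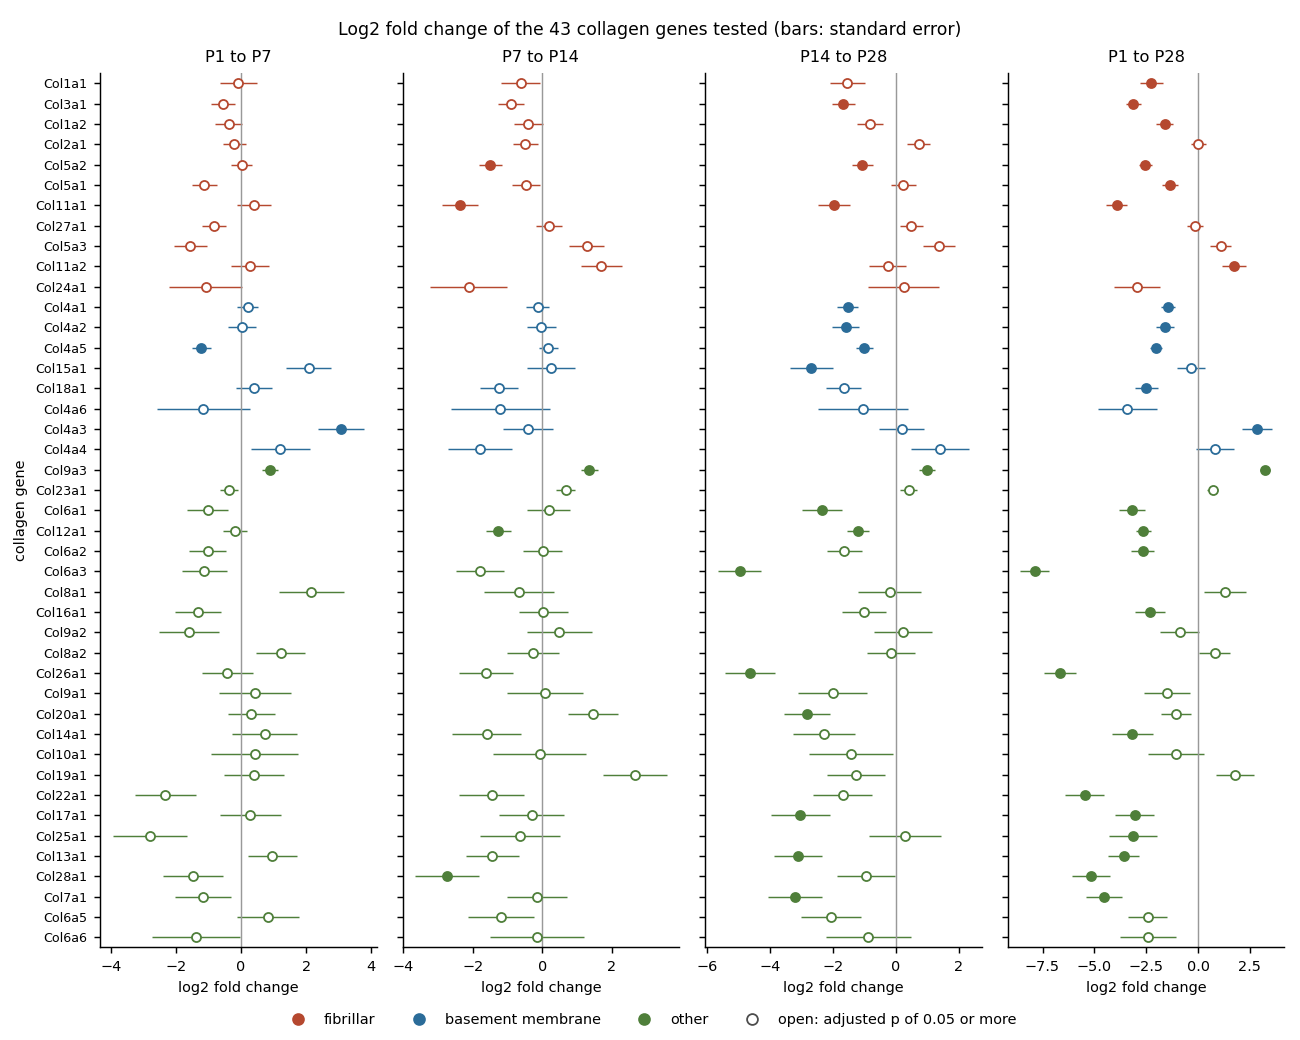
Log2 fold change of the 43 tested collagens in 4 comparisons (panels: P1 to P7, P7 to P14, P14 to P28, P1 to P28), with bars for the standard error, filled points for an adjusted p under 0.05 and open points for the others. From P14 to P28 15 filled points lie below zero and 1 above, and from P1 to P28 23 lie below and 3 above.

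The composition of the collagen pool changed along with its size. Summed per kilobase of exon, all collagens came to 4057 ± 1999 normalized counts (SD, n = 3) at P1 and 1907 ± 125 at P28, a ratio of 2.13. The fibrillar sum went from 2237 ± 1219 at P1 and 1732 ± 746 at P7 to 1015 ± 97.7 at P14 and 603 ± 64.2 at P28. The basement membrane sum was 910 ± 499, 847 ± 259, 765 ± 38.4 and 286 ± 26.9 in the same order. In both classes each P28 library lay below each P14 library, and the fibrillar sum of 544.7 to 671.6 at P28 did not overlap the 978.7 to 3412 seen at P1. The remaining collagens summed to 911 ± 329, 677 ± 84.1, 847 ± 171 and 1019 ± 190, and their P1 range of 576.5 to 1234 held the whole P28 range of 826.4 to 1205. As a share of the pool, fibrillar chains went from 53.6 ± 7.13% at P1 to 31.8 ± 5.57% at P28, and the other chains from 23.6 ± 3.39% to 53.1 ± 6.55%. Within the other chains, Col9a3 took 1.58 ± 0.643% of the pool at P1 and 27.5 ± 6.29% at P28, and Col23a1 5.39 ± 2.7% and 15.8 ± 2.96%. Col1a1, the most abundant collagen over all libraries, took 22.2 ± 8.43% and 9.63 ± 5.73%.

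**Figure D3:**
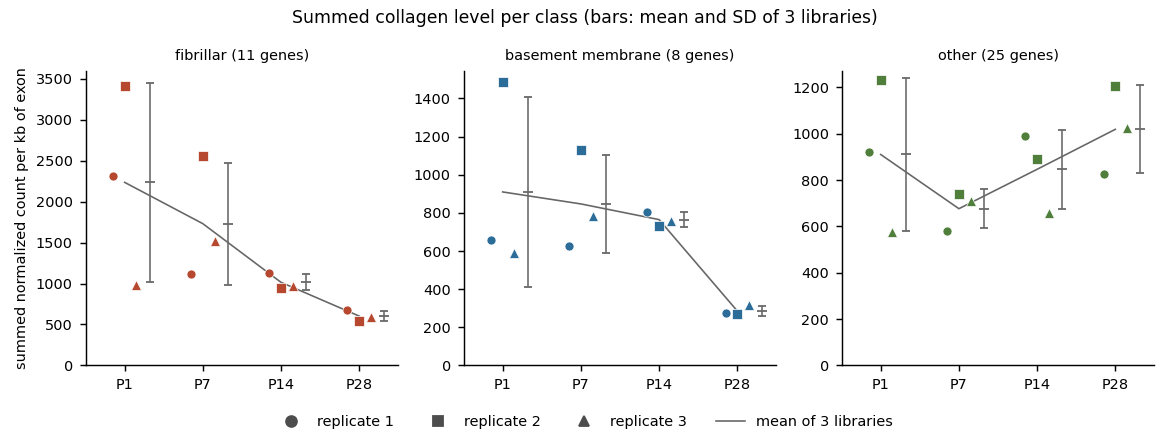
Summed normalized counts per kilobase of exon (y axis, linear from 0) of the fibrillar, basement membrane and other collagens (panels) at P1, P7, P14 and P28 (x axis), with 1 point per library and bars for the mean and SD of 3 libraries. Fibrillar and basement membrane sums at P28, of 603 and 286, lie below every P14 library, whereas the sum of the other collagens at P28 lies within the P1 range.

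Of the 11 fibrillar collagens none was called from P1 to P7, 2 fell from P7 to P14, 3 fell from P14 to P28, and 6 fell and 1 rose from P1 to P28, with a median net log2 fold change of -1.60. Col1a1, the main chain of type I collagen, had normalized counts of 7461, 9899 and 1804 at P1, 2711, 9803 and 4191 at P7, 3765, 2756 and 2920.2 at P14, and 1866, 1028 and 642 at P28. The P28 libraries overlapped P1 replicate 3 only, and the spread at P1 and P7 was several times that at P14. Col1a1 fell 4.76-fold from P1 to P28 (log2 -2.25, SE 0.56, adjusted p = 0.00692). This log2 value was -3.0 without P1 replicate 3 and -1.77 without P1 replicate 2. The log2 fold change of -1.54 from P14 to P28 missed the threshold (adjusted p = 0.0823, between 0.0293 and 0.211 over the alternatives). Col1a2, which encodes the partner chain of type I collagen, had values of 4179.8, 6535 and 1778 at P1, 1739.7, 5031 and 2498 at P7, 2399.8, 2178 and 1803 at P14, and 949.9, 1326 and 1390.2 at P28. All P28 libraries lay below all others, and Col1a2 fell 3.03-fold from P1 to P28 (log2 -1.60, SE 0.41, adjusted p = 0.00805). This log2 value was -2.12 without P1 replicate 3 and -1.18 without P1 replicate 2. The ratio of Col1a1 to Col1a2 per kilobase ranged from 0.875 to 3.72 over the 12 libraries, and both extremes were P28 libraries.

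Col3a1, the type III chain of soft tissue and vessel walls, also fell. Its values were 3999, 8633 and 2051 at P1, 2289.9, 2865 and 3401 at P7, 1755, 1424 and 1359 at P14, and 538, 363 and 544 at P28, and the ages did not overlap from P7 on. It fell 3.17-fold from P14 to P28 (log2 -1.66, SE 0.37, adjusted p = 0.00987) and 8.72-fold from P1 to P28 (log2 -3.12, SE 0.37, adjusted p = 2.16e-05). Col5a2, a type V chain that takes part in the start of fibrils, had values of 802, 1308 and 723 at P1, 983, 931 and 856 at P7, 362, 387 and 244 at P14, and 146, 249 and 103 at P28. The step down came after P7, with a 2.83-fold fall to P14 (log2 -1.50, SE 0.33, adjusted p = 0.00422). The further 2.09-fold fall to P28 (adjusted p = 0.0425) passed the threshold in the whole set, was lost without any of 9 libraries, with adjusted p from 0.0507 to 0.129, and remained without P1 replicate 2, P14 replicate 3 or P28 replicate 2 (0.00885 to 0.226 over all alternatives). Over the whole interval Col5a2 fell 5.84-fold (adjusted p = 4.06e-05). The genes Col3a1 and Col5a2 lie next to each other on chromosome 1, 24614 bases apart and pointing at each other, and their ratio per kilobase ranged from 1.43 to 6.45.

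Col11a1, a chain of the thin fibrils of cartilage, had the largest fall of the class. Its values were 696, 744 and 466 at P1, 666, 1186 and 706 at P7, 162, 143 and 174 at P14, and 113, 34.2 and 16.2 at P28. P1 and P7 overlapped and both lay above every later library. Col11a1 fell 5.15-fold from P7 to P14 (log2 -2.36, SE 0.52, adjusted p = 0.00469) and 15.2-fold from P1 to P28 (log2 -3.93, SE 0.52, adjusted p = 5.48e-05), or by 4.66 without P28 replicate 1 and 3.30 without P28 replicate 3 on the log2 scale. The 3.90-fold fall from P14 to P28 (adjusted p = 0.0225) was lost without P14 replicate 1 (0.0631), P14 replicate 2 (0.0507), P14 replicate 3 (0.0737) or P28 replicate 3 (log2 -1.34, adjusted p = 0.0524), was -2.70 on the log2 scale without P28 replicate 1, and ranged in adjusted p from 0.000866 to 0.218 over the alternatives. Its partner Col11a2 went the other way, with values of 44.9, 32.2 and 57.5 at P1, 27.1, 143 and 38.8 at P7, 141, 186 and 203 at P14, and 101, 165 and 189 at P28. Each P14 and P28 library lay above each P1 library, and P7 replicate 2 alone reached that level at P7. The 3.31-fold rise from P1 to P28 (log2 1.73, SE 0.59, adjusted p = 0.0344) was lost without P1 replicate 1 (0.0795), P1 replicate 2 (0.106), P1 replicate 3 (0.0517), P28 replicate 2 (0.0642) or P28 replicate 3 (0.0755), with 0.00812 to 0.106 over the alternatives.

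Col5a1, the type V chain that limits fibril width, had values of 687, 1430.4 and 538 at P1, 321, 406 and 391 at P7, 213, 189 and 471 at P14, and 343, 388 and 233 at P28. P1 stood above the later ages, which overlapped each other. The 2.57-fold fall from P1 to P28 (log2 -1.36, SE 0.39, adjusted p = 0.0153) was lost without P1 replicate 2 (log2 -0.95, adjusted p = 0.0821, 0.00242 to 0.0821 over the alternatives). The other fibrillar chains were not called between any pair of ages compared here. Col2a1, the type II chain of cartilage, ranged from 549.6 to 1941, and its net log2 fold change was 0.017 (adjusted p = 0.977). Col5a3, a further type V chain, had values of 87.1 to 139.7 at P1, 22.2 to 45 at P7, 63.5 to 123 in the P14 libraries and 142 to 364 in those of P28. It differed between ages in the F test over all 4 (adjusted p = 0.00497), with a net log2 fold change of 1.09 from P1 to P28 (adjusted p = 0.107). Col24a1 held 36.4 to 54.1 at P1 and 2.12 to 5.43 at P14, and Col27a1 132 to 458 over all libraries.

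**Figure D4:**
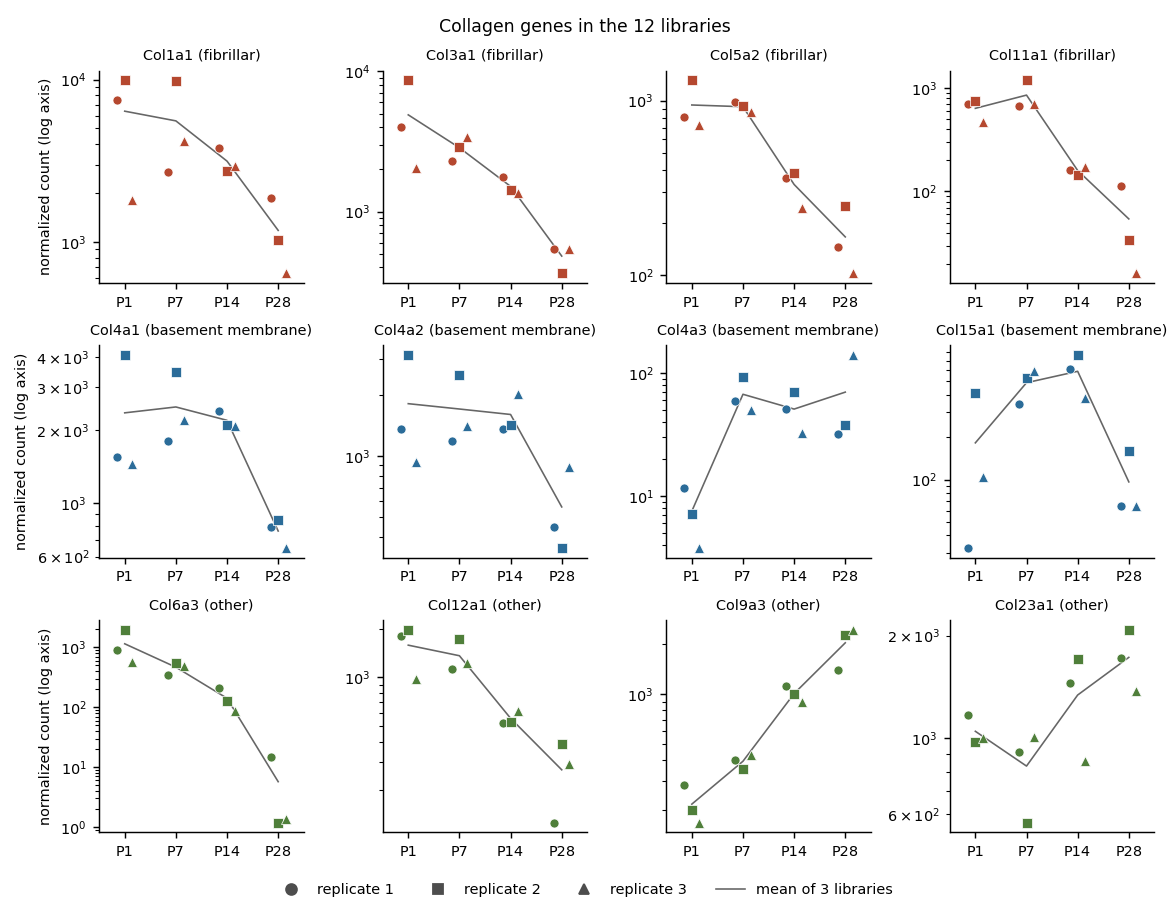
Normalized counts (y axis, log scale) of 12 collagen genes (panels) in each library at P1, P7, P14 and P28 (x axis), with circles, squares and triangles for replicates 1, 2 and 3 and a line for the mean. Col3a1, Col4a1 and Col4a2 drop to their lowest level at P28, Col11a1 and Col5a2 already fall at P14, Col6a3 falls to 1.18 to 14.6, and Col9a3 climbs from 167 to 282 at P1 to between 1401 and 2442 at P28.

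Of the 8 basement membrane chains, 1 rose and 1 fell from P1 to P7, none was called from P7 to P14, 4 fell from P14 to P28, and 4 fell and 1 rose from P1 to P28. Col4a1 and Col4a2 encode the chains of the common type IV network, which every basement membrane contains. Col4a1 had values of 1542, 4077 and 1442 at P1, 1805, 3455 and 2206 at P7, 2406, 2087 and 2083 at P14, and 794, 852 and 652 at P28. The first 3 ages overlapped and P28 lay below all of them. Col4a1 fell 2.87-fold from P14 to P28 (log2 -1.52, SE 0.33, adjusted p = 0.00845) and 2.74-fold from P1 to P28 (adjusted p = 0.00371). Col4a2 had values of 1353, 3134 and 937 at P1, 1192, 2504 and 1411 at P7, 1353, 1425 and 2022 at P14, and 449, 354 and 886 at P28, again with P28 below every other library. Col4a2 fell 3.02-fold from P14 to P28 (log2 -1.60, SE 0.42, adjusted p = 0.0218). This call was lost without P14 replicate 2 (0.0506), P14 replicate 3 (0.0915), P28 replicate 1 (0.0503) or P28 replicate 2 (0.0632), with 0.00895 to 0.0915 over the alternatives, whereas the 3.04-fold fall from P1 to P28 (adjusted p = 0.00883) was kept throughout.

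Col4a1 and Col4a2 lie head to head on chromosome 8 and share the DNA between their starts, which is shown because the windows of both genes overlap. Their RefSeq starts are 21 bases apart on GRCm38.p6, and the windows from 250 bases before to 50 bases after each start share 78 bases (chr8:11312777-11312854). Capitals mark the letters CCAAT and GGGCGG on either strand, which do not overlap each other here. The Col4a1 window is chr8:11312777-11313076 on the minus strand and the Col4a2 window chr8:11312555-11312854 on the plus strand.
Col4a1: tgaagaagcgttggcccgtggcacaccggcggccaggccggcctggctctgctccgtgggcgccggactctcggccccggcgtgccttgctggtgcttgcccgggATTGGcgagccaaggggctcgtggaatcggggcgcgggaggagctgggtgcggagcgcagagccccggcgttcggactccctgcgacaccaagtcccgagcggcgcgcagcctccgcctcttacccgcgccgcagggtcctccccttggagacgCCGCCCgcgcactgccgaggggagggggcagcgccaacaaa
Col4a2: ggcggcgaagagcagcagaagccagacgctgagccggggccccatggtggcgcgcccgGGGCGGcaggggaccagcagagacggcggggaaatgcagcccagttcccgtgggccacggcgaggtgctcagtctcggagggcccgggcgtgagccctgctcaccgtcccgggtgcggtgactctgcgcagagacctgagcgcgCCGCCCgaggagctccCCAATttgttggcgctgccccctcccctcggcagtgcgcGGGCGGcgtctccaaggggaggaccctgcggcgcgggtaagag
The Col4a1 window held 1 CCAAT and 1 GGGCGG, and the Col4a2 window 1 CCAAT and 3 GGGCGG, and neither held TATAAA. Of all 32851 windows of this length in the RefSeq table, 37.41% held CCAAT, 35.66% GGGCGG and 13.62% TATAAA on either strand. Windows were found for 35 of the 44 collagens, 38 windows in all, and 13, 23 and 5 of them held these letters. The ratio of Col4a1 to Col4a2 per kilobase ranged from 0.653 to 2.13 over the 12 libraries, and both extremes were P28 libraries.

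The remaining type IV chains form networks restricted to certain tissues, and they did not move as a block. Col4a5, on the X chromosome, had values of 1067, 1584 and 1104 at P1, 480.1, 510.4 and 605 at P7, 863, 515 and 479 at P14, and 213, 387 and 323 at P28. P1 lay above every later library and P28 below every earlier one. Col4a5 fell 4.11-fold from P1 to P28 (log2 -2.04, SE 0.28, adjusted p = 7.90e-05). Its 2.32-fold fall from P1 to P7 (adjusted p = 0.0160) was lost without P1 replicate 2 (0.0884), P7 replicate 1 (0.0667) or P7 replicate 2 (0.061), with 0.00125 to 0.0884 over the alternatives, and its 2.00-fold fall from P14 to P28 (adjusted p = 0.0304) without P14 replicate 1 (0.129) or P28 replicate 1 (0.0782), with 0.00946 to 0.156. Col4a6, which starts 1308 bases from Col4a5 and points away from it, had values of 354, 499 and 259 at P1, 147, 152 and 182 at P7, 99.6, 32.8 and 97.7 at P14, and 257, 0 and 145 at P28, and it was not called.

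Col4a3 was the basement membrane chain that rose. Its values were 11.7, 7.14 and 3.79 at P1, 58.9, 92.9 and 50.4 at P7, 50.8, 69.8 and 32.6 at P14, and 32.2, 37.7 and 141 at P28. Every later library lay above every P1 library, and P7, P14 and P28 overlapped. Col4a3 rose 8.36-fold from P1 to P7 (log2 3.06, SE 0.71, adjusted p = 0.0163), a call lost without P1 replicate 2 (0.0526), P1 replicate 3 (0.0631), P7 replicate 1 (0.0546) or P7 replicate 2 (0.0919), with 0.000225 to 0.0919 over the alternatives. It was 7.16-fold higher at P28 than at P1 (log2 2.84, SE 0.71, adjusted p = 0.00703), a call lost only where these ages were fitted alone (0.0515, with 4.5e-05 to 0.0515 over the alternatives), and 2.18 on the log2 scale without P28 replicate 3. Col4a4, the partner gene 71 bases away on the other strand, had values of 9.23 to 15.7 at P1 and 20.2 to 40.6 at P7 and was not called.

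Col15a1 and Col18a1 encode the multiplexins, which anchor basement membranes to the matrix beneath, and the end of the Col18a1 protein is released as endostatin. Col15a1 had values of 32.6, 409 and 104 at P1, 346, 527 and 588 at P7, 613, 767 and 382 at P14, and 64.3, 159 and 64.9 at P28. It was low at the ends of the series and high in between, except for P1 replicate 2, which reached the level of P7. Col15a1 fell 6.40-fold from P14 to P28 (log2 -2.68, SE 0.68, adjusted p = 0.0182), a call lost without P14 replicate 1 (0.0599) or P14 replicate 2 (0.0687), with 0.00128 to 0.0687 over the alternatives. The earlier difference, 2.07 on the log2 scale between P1 and P7, missed the threshold (adjusted p = 0.0853). It was 1.20 without P1 replicate 1 (adjusted p = 0.348) and 3.0 without P1 replicate 2 (adjusted p = 0.00728), which would be a call. Col18a1 had values of 254, 702 and 264 at P1, 353, 696 and 439.5 at P7, 233, 177 and 192 at P14, and 126, 83.7 and 23 at P28. P14 lay below P1 and P7, and P28 below P14. Col18a1 fell 5.69-fold from P1 to P28 (log2 -2.51, SE 0.55, adjusted p = 0.00304; log2 -1.81 without P28 replicate 3). The difference of -1.65 between P14 and P28 had an adjusted p of 0.0597 and was -0.95 without P28 replicate 3.

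Of the 9 FACIT collagens, 1 rose and 4 fell from P1 to P28. Col9a3, a chain of type IX collagen that decorates type II fibrils in cartilage, was the only collagen called higher in all 3 steps. Its values were 282, 200.1 and 167 at P1, 402, 351 and 426 at P7, 1118, 999.7 and 901 at P14, and 1401, 2267 and 2442 at P28. No age overlapped its neighbours. Col9a3 rose 2.56-fold from P7 to P14 (log2 1.35, SE 0.25, adjusted p = 0.00150) and 9.32-fold from P1 to P28 (log2 3.22, SE 0.25, adjusted p = 3.93e-07). The 1.85-fold rise from P1 to P7 (adjusted p = 0.0449) was lost without any library other than P1 replicate 1 and the P28 libraries, with adjusted p from 0.0574 to 0.162 (0.0185 to 0.162 over all alternatives). The 1.97-fold rise from P14 to P28 (adjusted p = 0.0194) was lost without P14 replicate 2 (0.0524), P14 replicate 3 (0.0729) or P28 replicate 3 (0.0536), with 0.00191 to 0.0729. The other type IX chains did not follow. Col9a1 ranged from 1.35 to 136 and Col9a2 from 8.77 to 167, both with their extremes among the P28 libraries, and neither was called. Per kilobase, Col9a3 was 4.85 to 7.74 times Col9a1 at P1. At P28 Col9a1 held 7, 115 and 1 reads, and the ratio was 22.0 in the library with 115. Col9a3 was 1.89 to 2.97 times Col9a2 at P1 and 10.9 to 128 times at P28.

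Col12a1, a chain that coats type I fibrils, went from 1792, 1971 and 983 at P1 and 1131, 1729 and 1222 at P7 to 520.0, 530.0 and 622 at P14 and 126, 387 and 289 at P28. P1 and P7 overlapped, and the later ages were each lower than the one before. Col12a1 fell 6.25-fold from P1 to P28 (log2 -2.64, SE 0.36, adjusted p = 7.16e-05). Its 2.40-fold fall from P7 to P14 (adjusted p = 0.0221) was lost without P7 replicate 2 (0.0947), P7 replicate 3 (0.051), P14 replicate 1 (0.0684) or P14 replicate 2 (0.0714), with 0.000877 to 0.0947 over the alternatives. The 2.29-fold fall from P14 to P28 (adjusted p = 0.0397) was lost without P1 replicate 1, P7 replicate 1, P7 replicate 3, any P14 library or P28 replicate 1, with 0.0531 to 0.122 (0.0128 to 0.166 over all alternatives), and was -0.73 on the log2 scale without P28 replicate 1.

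Col14a1, the relative of Col12a1 on type I fibrils, had values of 88, 85.7 and 31.8 at P1, 68.5, 183 and 87.6 at P7, 29.7, 30.7 and 40.2 at P14, and 26.3, 11.8 and 0 at P28. It fell 8.98-fold from P1 to P28 (log2 -3.17, adjusted p = 0.0237), which was lost without P1 replicate 1 (0.0845), P1 replicate 2 (0.0757) or P28 replicate 3 (log2 -1.76, adjusted p = 0.0546), was -4.14 on the log2 scale without P28 replicate 1, with adjusted p from 0.00456 to 0.104 over the alternatives. Col16a1 had values of 300.2, 517 and 189 at P1, 124, 120.4 and 123 at P7, 115, 262 and 63 at P14, and 27.8, 36.6 and 222 at P28, where replicate 3 reached the P1 range. Its 4.97-fold fall from P1 to P28 (adjusted p = 0.0204) was lost without P1 replicate 1 (0.0566), P1 replicate 2 (0.0878), P28 replicate 1 (0.0719) or P28 replicate 2 (0.0619), with 0.000738 to 0.0878. On the log2 scale this fall was -3.23 without P28 replicate 3 and -1.76 without P28 replicate 1. Col22a1, a collagen of tissue junctions such as that of muscle and tendon, had values of 191, 114 and 119.6 at P1, 18.3, 30.1 and 34.1 at P7, 32.8, 2.12 and 8.69 at P14, and 4.38, 4.72 and 0 at P28. The P1 libraries stood above all others. Col22a1 fell from P1 to P28 (log2 -5.47, SE 0.94, adjusted p = 0.000482; log2 -4.65 without P28 replicate 3). At P28 it held 7 reads in all, and the ratio of P1 to P28 in pooled reads was 47.0, with an exact 95% counting interval of 22.7 to 117.

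Col20a1 was highest at P14. Its values were 33.2, 52.2 and 18.2 at P1, 35.8, 48.4 and 35.7 at P7, 144, 66.6 and 140.1 at P14, and 14.6, 37.7 and 5.41 at P28. It fell 7.09-fold from P14 to P28 (log2 -2.83, SE 0.73, adjusted p = 0.0194), a call lost without P14 replicate 1 (0.0685) or P14 replicate 3 (0.0697), with 0.00157 to 0.132 over the alternatives, and was -3.48 without P28 replicate 2 and -2.18 without P28 replicate 3 on the log2 scale. Col19a1 had 3.69 to 20.4 at P1 and 67.7 to 135 at P14. It passed the F test over the 4 ages (adjusted p = 0.0444) and was not called between any pair of ages compared.

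The beaded filament chains Col6a1, Col6a2 and Col6a3 together form the microfilaments of type VI collagen, which surround cells next to basement membranes. The class sum per kilobase went from 376 ± 233 at P1 and 163 ± 39.6 at P7 to 144 ± 53.6 at P14 and 39.9 ± 21.8 at P28, a 9.41-fold ratio between the ends. Col6a1 had values of 585, 1072 and 335 at P1, 230.1, 353 and 305 at P7, 499.9, 236 and 304 at P14, and 17.5, 119 and 124 at P28. Col6a2 had values of 949.9, 1799 and 348 at P1, 262, 439.7 and 605 at P7, 609, 359.7 and 325 at P14, and 87.7, 277 and 94.7 at P28. In both genes P28 lay below every other library except P7 replicate 1 for Col6a2, at 262. Col6a1 fell 9.11-fold from P1 to P28 (log2 -3.19, SE 0.63, adjusted p = 0.00138), or log2 -2.28 without P28 replicate 1. Col6a2 fell 6.32-fold (log2 -2.66, SE 0.56, adjusted p = 0.00213), or log2 -3.30 without P1 replicate 3 and -2.11 without P1 replicate 2. The 5.06-fold fall of Col6a1 from P14 to P28 (log2 -2.34, adjusted p = 0.0238) was lost without P14 replicate 1 (0.0942) or P14 replicate 3 (0.066), was -1.43 without P28 replicate 1, and ranged in adjusted p from 0.00568 to 0.153. The log2 fold change of Col6a2 in that step was -1.64 (adjusted p = 0.0632).

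Col6a3, the longest chain of type VI collagen, fell further than its partners. Its values were 898, 1976 and 580.0 at P1, 353, 559 and 492 at P7, 209, 129 and 86.9 at P14, and 14.6, 1.18 and 1.35 at P28, and no age overlapped another. It fell from P14 to P28 (log2 -4.96, SE 0.69, adjusted p = 0.000674) and from P1 to P28 (log2 -7.87, SE 0.69, adjusted p = 1.21e-06), or by 5.89 and 8.80 on the log2 scale without P28 replicate 1. At P28 it held 10, 1 and 1 reads. In pooled reads the ratio of P14 to P28 was 26.9, with an exact 95% counting interval of 15.2 to 52.5, and that of P1 to P28 was 217, with an interval of 124 to 421. The ratio of Col6a3 to Col6a1 per kilobase was 0.561 to 0.674 in the 6 libraries of P1 and P7, 0.105 to 0.200 in those of P14 and 0.00363 to 0.305 in those of P28. In the highest P28 library for Col6a3, replicate 1, Col6a1 was at its lowest. The related chains Col6a5 and Col6a6 stayed between 0 and 29.5 and were not called.

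Of the 4 transmembrane collagens 3 fell from P1 to P28. Col23a1 was by far the most abundant of them, with values of 1168, 978 and 1003 at P1, 915, 567 and 1009 at P7, 1457, 1705 and 859 at P14, and 1723, 2082 and 1379 at P28. Each P28 library lay above each P1 and P7 library, and the net log2 fold change of 0.70 missed the threshold (adjusted p = 0.0574). Col13a1, a collagen of the neuromuscular junction, had values of 23.4, 16.4 and 9.09 at P1, 23.1, 23.6 and 51.9 at P7, 10.6, 11.6 and 9.77 at P14, and 1.46, 0 and 0 at P28, where it held 1 read in all. It was lower at P28 than at P14 (adjusted p = 0.0153), a call lost with a pseudocount of 10 (0.106) and where only these ages were fitted (0.0534), with 0.00844 to 0.106 over the alternatives, and than at P1 (adjusted p = 0.00226). The ratio of P1 to P28 was 38.2, with an exact 95% counting interval from 6.64 to 1528, and that of P14 to P28 was 24.2, with an interval from 4.03 to 989, both for counting error only.

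Col17a1, the collagen of hemidesmosomes, had values of 25.2, 39.3 and 12.9 at P1, 26.3, 36.6 and 24.8 at P7, 75.2, 7.41 and 20.6 at P14, and 0, 5.9 and 2.7 at P28. All P28 libraries lay below all others. At P28 it held 7 reads in all. The fall from P14 (log2 -3.03, adjusted p = 0.0451) was lost without any library except P14 replicate 2 and P28 replicate 2, with 0.0538 to 0.172 (0.00807 to 0.193 over all alternatives), and lay between -2.19 without P14 replicate 1 and -3.78 without P14 replicate 2. The fall from P1 (log2 -3.05, adjusted p = 0.0218) was lost without P1 replicate 1 (0.0653), P1 replicate 2 (0.08) or P28 replicate 1 (log2 -2.28, adjusted p = 0.0672), with 0.00982 to 0.08, and was -3.67 without P28 replicate 2. In pooled reads the ratio of P1 to P28 was 8.44, with an exact 95% counting interval of 3.96 to 21.5. Col25a1, a collagen of neurons, had values of 130.4, 94.3 and 116 at P1, 19.1, 10.5 and 17.8 at P7, 34.9, 3.17 and 6.52 at P14, and 92.1, 1.18 and 9.47 at P28. Its 8.83-fold fall from P1 to P28 (adjusted p = 0.0458) was lost without any library except P14 replicate 1, P14 replicate 2 and P28 replicate 1, with 0.056 to 0.168 (0.00279 to 0.261 over all alternatives), and was -1.86 without P28 replicate 2 and -4.57 without P28 replicate 1 on the log2 scale.

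The short-chain collagens Col8a1 and Col8a2, which form the hexagonal lattice of Descemet's membrane in the cornea and also occur in vessels, and Col10a1 of growth plate cartilage were not called in any comparison. Col8a1 had values of 124, 94.3 and 39.4 at P1, 234, 679 and 265 at P7, 545, 404 and 46.7 at P14, and 738, 256 and 36.5 at P28, a spread of 36.5 to 738 within P28 alone. The lowest libraries for Col8a1 at P14 and P28, both replicate 3, were also the lowest for the summed level of 10 choroid plexus markers led by Ttr, at 831 against 53315 and 91919 at P14 and at 14855 against 87164 and 153001 at P28. At P1 these markers summed to 453 to 852. Their part in the Col8a1 values was not tested. Col8a2 ranged from 14.4 to 156 over all libraries and Col10a1 from 0 to 103.

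The 3 remaining chains were near zero at P28 and, like Col22a1, Col13a1 and Col17a1, held a value under 10 in every P28 library, so that they entered the test through earlier ages alone. Intervals below cover counting error only. Col26a1, which carries an EMI domain, had values of 184, 329 and 109.8 at P1, 123, 120.4 and 185 at P7, 64.6, 26.4 and 53.2 at P14, and 0, 0 and 5.41 at P28. It fell from P14 to P28 (log2 -4.63, SE 0.78, adjusted p = 0.00218) and from P1 to P28 (log2 -6.67, adjusted p = 1.83e-05). These values were log2 -4.18 and -6.22 without P28 replicate 1, and -5.52 and -7.56 without P28 replicate 3. That library held all 4 reads of P28, and the ratio of P1 to P28 in pooled reads was 118, with an exact 95% interval of 46.0 to 435. Col7a1, the chain of the anchoring fibrils of skin, had values of 57.2, 34.3 and 37.1 at P1, 14.3, 32.7 and 12.4 at P7, 20.1, 9.52 and 21.7 at P14, and 0, 0 and 5.41 at P28. It fell from P1 to P28 (log2 -4.53, adjusted p = 0.00104), or log2 -5.42 without P28 replicate 3 and -4.08 without P28 replicate 1. With 4 reads at P28 the ratio of P1 to P28 was 24.8, with an interval of 9.54 to 92.1. The fall from P14 (log2 -3.21, adjusted p = 0.0237) was lost without P14 replicate 1 (0.0693) or P14 replicate 3 (0.0748), with 0.00517 to 0.115 over the alternatives. On the log2 scale this fall was -4.10 without P28 replicate 3 and -2.76 without P28 replicate 1. Col28a1, a collagen of peripheral nerve, had values of 30.8, 60 and 23.5 at P1, 5.57, 18.3 and 16.3 at P7, 0, 6.35 and 0 at P14, and 0 in all P28 libraries. Against a floor of 3 reads per library, P28 was at least 9.54-fold lower than P1 and at least 3.35-fold lower than P7 (adjusted p from P1 to P28 = 0.000617). Its fall from P7 to P14 (adjusted p = 0.0466) was lost without any P1 or P7 library, P14 replicate 1 or P14 replicate 3, with 0.0524 to 0.153 (0.0098 to 0.217 over all alternatives). The log2 value of -2.74 was -3.70 without P14 replicate 2 and -2.26 without P14 replicate 1.

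Among the genes that make, process, bind and degrade collagen, the share called lower from P1 to P28 varied between lists. Of all genes, 20.0% were called lower and 14.6% higher. Of 20 genes for collagen synthesis and folding, 1 rose and 4 fell from P1 to P28, and the share that fell, 20.0%, was that of all genes. P4hb, a subunit of prolyl hydroxylase, had 2392 ± 211 at P1 and 1912 ± 303 at P28, and the collagen chaperone Serpinh1 had 1374 ± 628 and 1319 ± 771, neither called between these ages. P4hb was called lower from P1 to P7 (log2 -0.70, adjusted p = 0.0427). The prolyl hydroxylase genes parted. P4ha3 had values of 1380, 1289 and 1150 at P1 and 1.46, 0 and 20.3 at P28 (log2 -8.41, adjusted p = 9.90e-06; -7.46 without P28 replicate 2 and -9.66 without P28 replicate 3), whereas P4ha1 rose from 331 ± 164 to 817 ± 74.1 (log2 1.40, adjusted p = 0.00244). P3h2, a prolyl 3-hydroxylase, had values of 96.0, 60.7 and 103 at P1 and 2.92, 1.18 and 0 at P28 (log2 -5.38, adjusted p = 9.26e-05). All its P28 values were under 10, so P3h2 entered the test through earlier ages alone and the size of its fall is uncertain. Of 14 processing and crosslinking genes 6 fell (42.9%) and none rose. Adamts2, Lox and Loxl2 were near the threshold, with adjusted p of 0.0443, 0.0444 and 0.0398. In P28 replicate 3 they had values of 17.6, 16.2 and 8.11, far below the other P28 libraries. Adamts3, a procollagen protease, fell by 4.98 on the log2 scale (adjusted p = 0.000887), or by 6.05 without P28 replicate 1 and 3.57 without P28 replicate 3. Tll2 was at 0 in all P28 libraries and at 3.79 to 23.4 at P1, so it entered the test through earlier ages alone. The abundant Pcolce and Bmp1 were not called from P1 to P28, though Bmp1 rose from P7 to P14 (log2 1.08, adjusted p = 0.00233). Of 11 collagen receptors tested 5 fell (45.5%) and none rose. Itga11 fell by 5.31 (adjusted p = 0.000743) and Itga2 by 4.29 (adjusted p = 0.00516) on the log2 scale. Adgrg1 was not called from P1 to P28, though it fell from P1 to P7 (log2 -1.42, adjusted p = 0.00442). Without single libraries Itga11 was at log2 -3.91 (P28 replicate 2), -4.70 (P1 replicate 2), -5.96 (P28 replicate 3) or -6.07 (P28 replicate 1), and Itga2 at -3.32 (P28 replicate 2) or -5.62 (P28 replicate 1). The abundant Itgb1 fell by 0.46 (adjusted p = 0.0421), which was lost without any P1 library, P7 replicate 1, P14 replicate 1, P14 replicate 2, P28 replicate 1 or P28 replicate 2 (0.000697 to 0.12 over the alternatives).

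Of 6 collagen-degrading proteases tested, 4 fell from P1 to P28. The abundant Mmp14 and Mmp2 were not among them. Mmp14 fell from P1 to P7 (log2 -1.05, adjusted p = 0.00244) and from P7 to P14 (log2 -0.75, adjusted p = 0.00808) and rose from P14 to P28 (log2 1.49, adjusted p = 0.000311), with means of 2121, 1022, 609.9 and 1702. Mmp9 was low in most libraries, at 6.82 to 22.1 at P1, 0.796, 145 and 5.43 at P7, 10.6, 0 and 4.34 at P14 and 0 in all P28 libraries. Mmp9 therefore entered the test through earlier ages alone, and the size of its fall (adjusted p = 0.0413) is uncertain. Ctsk fell by 2.58 on the log2 scale (adjusted p = 0.0345), which was lost without any P1 library, P28 replicate 1 or P28 replicate 2 (0.012 to 0.111 over the alternatives). Of 9 fibril-associated partners 2 rose and 2 fell. Sparc, a collagen-binding glycoprotein, rose by 2.33 on the log2 scale (adjusted p = 9.46e-06). Prelp was not called from P1 to P28, though it rose from P7 to P14 (log2 1.30, adjusted p = 0.0248). Aspn rose by 2.57 (adjusted p = 0.0282), which was lost without any P1 library, P28 replicate 1 (log2 1.77) or P28 replicate 3 (0.000122 to 0.11 over the alternatives), and was 3.62 without P28 replicate 2. Thbs2 fell by 1.25 (adjusted p = 0.0146), which was lost without P1 replicate 1 (0.0641), and Bgn by 1.18 (adjusted p = 0.0417), which was lost without most libraries and was -0.71 on the log2 scale without P1 replicate 2 and -0.78 without P28 replicate 3 (adjusted p from 0.00705 to 0.196 over the alternatives). Of 7 basement membrane partners 4 fell and none rose. Nid1, which links laminin to type IV collagen, had 6820 ± 674 at P1 and 3071 ± 208 at P28 (log2 -1.15, adjusted p = 5.25e-05). Smoc1 fell by 4.15 (adjusted p = 1.01e-05) and Nid2 by 3.02 (adjusted p = 0.00138) on the log2 scale, the latter log2 -3.82 without P28 replicate 1 and -2.19 without P28 replicate 3.

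**Figure D5:**
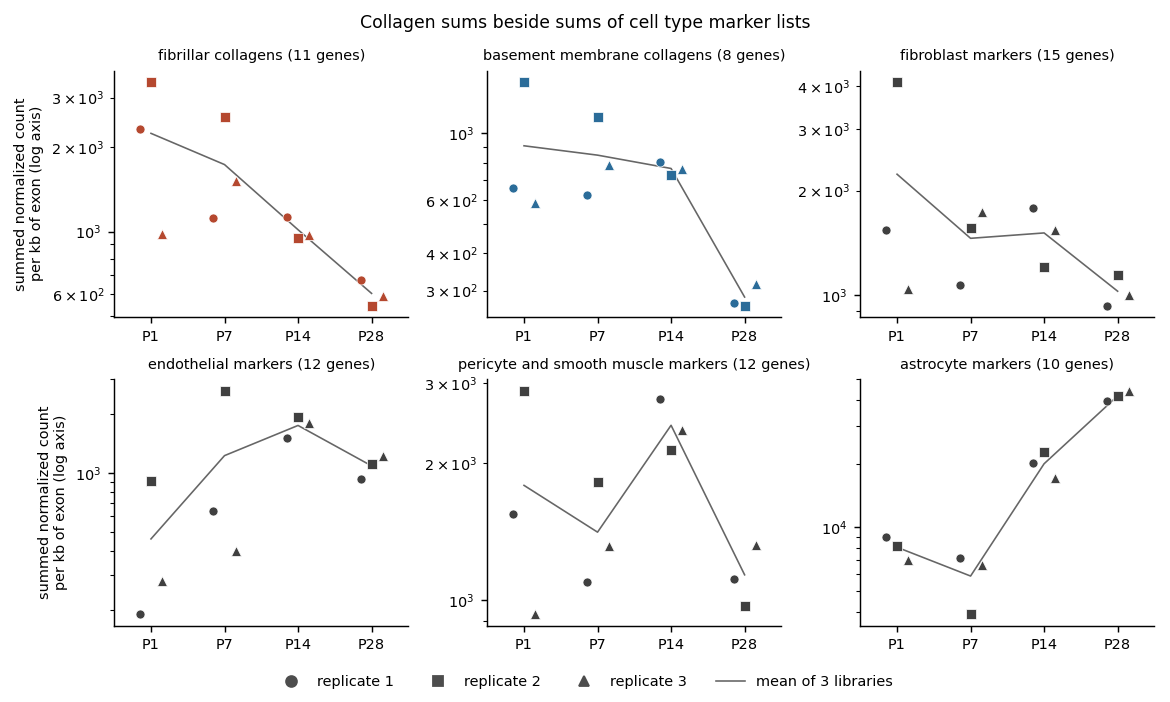
Summed normalized counts per kilobase (y axis, log scale) of fibrillar and basement membrane collagens and of the marker lists of fibroblasts (15 genes), endothelial cells (12), pericytes and smooth muscle (12) and astrocytes (10) in each library at P1, P7, P14 and P28. P1 replicate 2 is the highest P1 library for the fibrillar, basement membrane, fibroblast, endothelial and pericyte sums, and the astrocyte sum is highest at P28, at 39378 to 44317.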

How the data were processed

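RNA was sequenced from GFP-sorted cerebellar cells of Aldh1l1-GFP mice, with 3 libraries at each of 4 ages. The authors aligned reads with STAR 2.5.0a to mm10, counted them over UCSC transcripts with GenomicAlignments and deposited normalized counts, a signal scaled by 1 DESeq2 size factor per library (DESeq2 1.30.1, FastQC 0.11.7 and MultiQC 1.11 in the submitters' processing notes). Columns were assigned to samples by the column name that each sample's label gives, and 0 remained unmatched. All 12 column names carry P28, also those of the other ages, and the ages rest on the labels alone. Division by the value of 1 read gave whole reads for 100% of values (tolerance 0.1 read), 6399499 to 14733985 per library, and intervals and floors cover counting error only. No library pair agreed within sampling noise.

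Values were tested as log2(value + 1) with limma 3.58.1 (R 4.3.3), trend and all libraries in 1 fit, for genes of at least 10 in at least 3 libraries, with fold changes on that scale, which understates low genes. edgeR 4.0.16 and DESeq2 1.42.0 on the recovered reads, other scalings, pseudocounts and filters, the compared ages alone, a replicate block and leaving out each library were alternatives. Exon lengths and positions came from GENCODE M21. Collagens called in any comparison, the 3 most abundant of each class and their partner chains were given by library, and of the companion lists the 2 most abundant genes and up to 2 called in each direction. The members and lists were chosen with earlier results of these data known.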

Additional observations from a re-analysis of the deposited data

How the results depend on the processing

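The collagen calls and a set of further gene comparisons printed above were checked for their sign under the alternatives, and none of these reversed. The net change of Col2a1 was not among those checked. All 50 calls of collagen genes kept their sign, of which 26 were also kept as calls under every alternative. The order of the steps by number of calls did change. With only the compared ages fitted, the steps had 11, 12 and 6 calls in place of 3, 5 and 16. Over all genes tested, they had 2820, 4771 and 766 calls in place of 1191, 3227 and 2232. In the last step of that fit, 2.54% of all genes were called higher and 2.41% lower. The number of collagens called from P1 to P7 (3) was 6 with DESeq2, 11 with only the compared ages fitted and 10 at the study's threshold, and 0 to 4 when single libraries were left out (0 in limma without P7 replicate 1 or P7 replicate 2, with 7 and 8 at an unadjusted p under 0.05). From P7 to P14 (5) it was 8 with DESeq2, 8 with a pseudocount of 10, 12 with only the compared ages and 11 at the study's threshold, and 3 to 8 without single libraries (3 without P7 replicate 3 or P14 replicate 1). From P14 to P28 (16) it was 10 where at least 10 reads in every library were required, 6 with only the compared ages, and 7 to 19 without single libraries (7 without P14 replicate 1). From P1 to P28 (26) it was 16 under that read minimum, which left 23 collagens to test, and 20 to 30 without single libraries. At any age (29) it was 18 under that minimum and 25 to 32 without single libraries. Over all genes, the fits without single libraries gave 651 to 1536 calls from P1 to P7 and 2173 to 3933 from P7 to P14. They gave 1242 to 2807 from P14 to P28 and 3916 to 5751 from P1 to P28. Scaling by library totals alone moved the log2 change of the class sums from P14 to P28 to -0.99 for fibrillar (-0.75) and -1.66 for basement membrane chains (-1.42), and that of the others from P7 to P14 to 0.053 (0.31). It also moved the median of all genes to 0.095, -0.34, -0.35 and -0.66 in the 4 comparisons. The cause of these shifts was not tested. Deviations of libraries with the same replicate number correlated at -0.029 to 0.139 over 18 pairs, 1 of them over 0.1. That pair was P1 replicate 2 and P7 replicate 2. Libraries with different numbers correlated at -0.105 to 0.0536 over 36 pairs. Whether libraries with the same number shared a batch was not tested. The fit with the replicate block called 3, 5, 17, 26 and 30 collagens. Depth limits the chains below 10 reads, and a chain at 0 at P28 was not detectable at this depth rather than shown to be absent.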
